A study of Mus musculus with 74 samples.

Results

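The genes described here are 40 members of the Wnt pathway, listed by name: 12 Wnt ligands, the ligand-modifying enzyme Porcn, the 10 Frizzled receptors, 2 Lrp co-receptors, 3 secreted inhibitors, 6 genes of beta-catenin and its destruction complex, 4 TCF/LEF factors and 2 target or feedback genes. All 40 were present among the 37620 genes of the deposited tables, which cover 35 RNA-seq libraries of mouse embryonic stem (ES) cells.

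Most libraries came from SunTag ES cells, in which doxycycline (Dox) switches on a catalytically dead Cas9 bearing a peptide array, together with an antibody fragment that brings the VP64 activator to it, so that a constitutively expressed guide RNA turns on its own target promoter. The cells were E14Tg2a derivatives, with 1 clone carrying the Nanog guide from each of the parental SunTag clones C1 and C2, and 1 further clone derived from each of these that also carried an Otx2 guide; each condition therefore rests on 2 clonal lines. Nanog guide libraries numbered 3 with LIF and no Dox, 2 with LIF and Dox, 3 without LIF and without Dox, and 3 without LIF and with Dox. The corresponding Nanog/Otx2 guides libraries numbered 3, 4, 4 and 4. Of the Nanog guide libraries without LIF and with Dox, 2 of clone C1 carry the same replicate number in their titles but different library codes. They are called C1-1 and C1-1b here. LIF was used at 10 ng/mL and Dox at 1 ug/mL, and the SunTag treatments lasted 3 days; all cells were grown with serum. A further 9 libraries came from 44iN cells, which lack endogenous Nanog and carry a Dox-inducible Nanog transgene (2 libraries with Dox, 2 after 24 h without Dox, 2 kept without Dox for the long term), and from wild-type Tg2a cells (3 libraries). All 9 had LIF. Per the paper, 44iN cells without Nanog for the long term were kept under G418 selection.

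Library totals ranged from 6107512 to 92244655 counts, with a median of 29298745, and the 37 pairs of libraries within a group all differed by more than counting noise (chi-square per gene between 9.99 and 224), so none were merged. Nothing in the labels says that same-condition libraries came from separate cultures, so p-values measure the spread between these libraries. The Nanog guide C1-1 library with LIF and no Dox differed most from the other two of its group (chi-square per gene 102 and 113 against 15.4). It was the only C1 library there. Over all SunTag groups pairs of different clones gave 26.1 to 113 and pairs of the same clone 9.99 to 41, so clone and library cannot be told apart. The targeted genes followed the labels. Without LIF, Nanog had 2234 to 8484 normalised counts without Dox and 45041 to 55641 with Dox under the Nanog guide, and Otx2 with LIF had 736 to 1062 without Dox and 3214 to 3806 with Dox under the Nanog/Otx2 guides. In 44iN cells Nanog had 13366 and 18394 counts with Dox and 706 and 739 after 24 h without it. The ES cell state moved with LIF: the 13 naive ES cell markers summed to 129703 to 142913 normalised counts with LIF and 34846 to 38816 without it (Nanog guide, no Dox), the 6 formative epiblast markers to 7702 to 11102 and 104913 to 122237, and the 4 neural markers to 167 to 353 and 1184 to 3692. The 8 primitive streak markers summed to 98.6 to 220 with LIF and 468 to 677 without it (5 and 4 of them with a mean under 10 counts), and to 518 to 787 with LIF and Dox. Under the Nanog/Otx2 guides they summed to 120 to 181 with LIF and 223 to 334 without it. The summed primitive endoderm markers were 6670 to 9186 with LIF and 4464 to 5019 without it. The part of these shifts in the Wnt gene values was not tested, and in bulk RNA fewer expressing cells and less RNA per cell cannot be told apart.

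Wnt ligands are lipid-modified by Porcn, a membrane-bound acyltransferase without which they cannot be secreted as active proteins. Once outside the cell they bind a Frizzled receptor together with Lrp5 or Lrp6, and the secreted Sfrp and Dkk proteins interfere with that step. Receptor engagement stalls the complex of Axin, Apc and Gsk3 that marks beta-catenin for destruction, and beta-catenin then reaches the TCF/LEF factors on DNA, of which Tcf7l1 acts mainly as a repressor in ES cells and Lef1 and Tcf7 mainly as activators. In ES cells Wnt signalling is known to sustain self-renewal largely by relieving Tcf7l1 repression, and Nanog and Esrrb are among the genes that Tcf7l1 represses.

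The guides that define the groups are shown first, each with its target site in the mm9 genome and the adjoining PAM in capitals. The Nanog site lies at chr6:122657269-122657288 on the plus strand, 228 bases upstream of the annotated Nanog start and outside any exon, and the Otx2 site at chr14:49282649-49282668 on the minus strand, inside the annotated Otx2 gene, outside its exons and 111 bases upstream of the nearest annotated transcript start. Each matched 1 place in the genome exactly.
Nanog guide site: cttcccactagagatcgccaGGG
Otx2 guide site: aatgtagagcgtgcatttggAGG

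Promoter sequences of 300 bases (250 before to 50 after the start) from RefSeq, build GRCm38.p6, were matched for 26 of the 40 members, giving 35 promoters. They held a median of 24 CpG dinucleotides against 7 over all 32851 promoters, with a median observed to expected CpG ratio of 0.754 against 0.384. The letters ATCAAAG, a form of the TCF/LEF core, were read on both strands, and other forms of the core were not searched. They were present in 3 of the 35 (8.57%: Sp5, 1 promoter of Wnt5b and 1 of Wnt11) and in 3.73% of all promoters. Those printed are the promoters of the most abundant Frizzled messages, Fzd5 (chr1:64737701-64738000, minus strand) and Fzd7 (chr1:59481897-59482196, plus strand), because these moved in opposite directions, the promoter of Lef1 (chr3:131110047-131110346, plus strand), which fell with Dox only when LIF was present, and the promoter of Sp5 (chr2:70474673-70474972, plus strand), where the capitals mark the motif on the reverse strand.
Fzd5 promoter: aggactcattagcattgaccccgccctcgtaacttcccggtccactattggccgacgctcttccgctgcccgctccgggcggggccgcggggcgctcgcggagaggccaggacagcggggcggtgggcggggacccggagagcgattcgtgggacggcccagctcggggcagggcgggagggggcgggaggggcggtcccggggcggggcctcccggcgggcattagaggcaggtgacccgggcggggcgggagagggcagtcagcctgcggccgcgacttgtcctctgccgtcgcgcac
Fzd7 promoter: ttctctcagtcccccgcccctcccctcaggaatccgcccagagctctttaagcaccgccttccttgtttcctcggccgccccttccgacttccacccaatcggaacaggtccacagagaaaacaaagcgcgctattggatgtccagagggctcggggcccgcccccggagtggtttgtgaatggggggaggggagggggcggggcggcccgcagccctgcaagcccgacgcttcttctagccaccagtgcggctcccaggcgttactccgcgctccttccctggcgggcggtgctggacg
Lef1 promoter: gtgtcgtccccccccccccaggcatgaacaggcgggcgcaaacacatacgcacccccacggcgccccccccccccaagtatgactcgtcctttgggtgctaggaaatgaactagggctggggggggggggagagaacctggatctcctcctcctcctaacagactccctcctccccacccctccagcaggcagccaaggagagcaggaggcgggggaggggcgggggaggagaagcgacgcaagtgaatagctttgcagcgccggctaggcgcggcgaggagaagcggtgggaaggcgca
Sp5 promoter: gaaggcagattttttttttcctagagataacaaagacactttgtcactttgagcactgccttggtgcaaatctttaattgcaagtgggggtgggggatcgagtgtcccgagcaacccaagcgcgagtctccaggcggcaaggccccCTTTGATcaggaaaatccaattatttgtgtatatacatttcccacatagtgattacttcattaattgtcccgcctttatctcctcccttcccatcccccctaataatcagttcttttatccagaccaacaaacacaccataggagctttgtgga
The Fzd5, Fzd7 and Lef1 windows held 38, 24 and 18 CpG and no match to these letters, and the Sp5 window held 6 CpG.

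The ligands were scarce. Across all 35 libraries the highest ligand level was 170 normalised counts (Wnt5a, 44iN cells after 24 h without Dox), and 8 of the 12 ligands stayed under 100 in every library. Levels of different genes were compared only per kb of annotated exon length: on that scale the 12 ligands summed to 36.3 to 123 normalised counts per kb in a library, against 639 to 3588 for the 10 Frizzled receptors. A gene was tested where 1 or more groups of the model had no library under 10 normalised counts, as held for 36 members under the Nanog guide and 35 under the Nanog/Otx2 guides. Wnt3a, Wnt7a, Wnt10a and Sp5 failed in both and Dkk1 in the second. Under the Nanog guide Wnt3 and Wnt11 passed through 1 group only, the group where each was highest. There 6 ligands (Wnt3, Wnt4, Wnt5a, Wnt6, Wnt8a and Wnt11) passed through groups on 1 side of the LIF comparison alone. Under the Nanog/Otx2 guides 3 did so (Wnt3, Wnt6 and Wnt8a). In mm9 the members that the results turn on lie at chrX:7770974-7783651 (Porcn), chr1:64777134-64784324 (Fzd5), chr1:59538991-59543791 (Fzd7), chr11:102465745-102469372 (Fzd2), chr8:24521974-24560104 (Sfrp1), chr6:72576372-72739248 (Tcf7l1) and chr3:130813389-130927274 (Lef1), counted over their annotated exons; Fzd2 and Fzd7 are each 1 exon block.

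LIF withdrawal changed most of the listed members that were tested. Without Dox, 21 of the 36 members tested rose and 6 fell under the Nanog guide, where 20.2% of all genes tested rose and 21.3% fell (edgeR quasi-likelihood test, Benjamini-Hochberg adjusted p under 0.05, used throughout). The median log2 fold change was 0.91 over the members and -0.05 over all genes tested. The members were listed with earlier results of these data known, so setting them beside all genes is a description. In the Nanog/Otx2 cells 22 rose and 7 fell of 35 (24.6% and 25.2% of all genes), with a median of 0.81 against -0.01. Without the ligands that passed through 1 side of LIF alone, 18 of 30 rose and 4 fell under the Nanog guide. The corresponding Nanog/Otx2 counts were 20 of 32 and 6. With no filter and all 40 members in the test, 21 rose and 5 fell under the Nanog guide (13.4% and 12.1% of all genes). Under the Nanog/Otx2 guides 21 rose and 9 fell (15% and 14.2%). Of the member calls, 19 genes rose in both, 90.5% and 86.4% of each list, and 5 fell in both, 83.3% and 71.4%, while none moved in opposite directions. The same shares over all genes are not given here. The Nanog/Otx2 clones also derive from the Nanog guide clones, so the sharing is not read as particular to the members. The receptors, co-receptors and TCF/LEF factors carried most of the rises (7 of 10, 2 of 2 and 3 of 4, in both guide sets), whereas Porcn, Fzd5, Fzd10, Sfrp1 and Wnt6 fell in both.

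**Figure D1:**
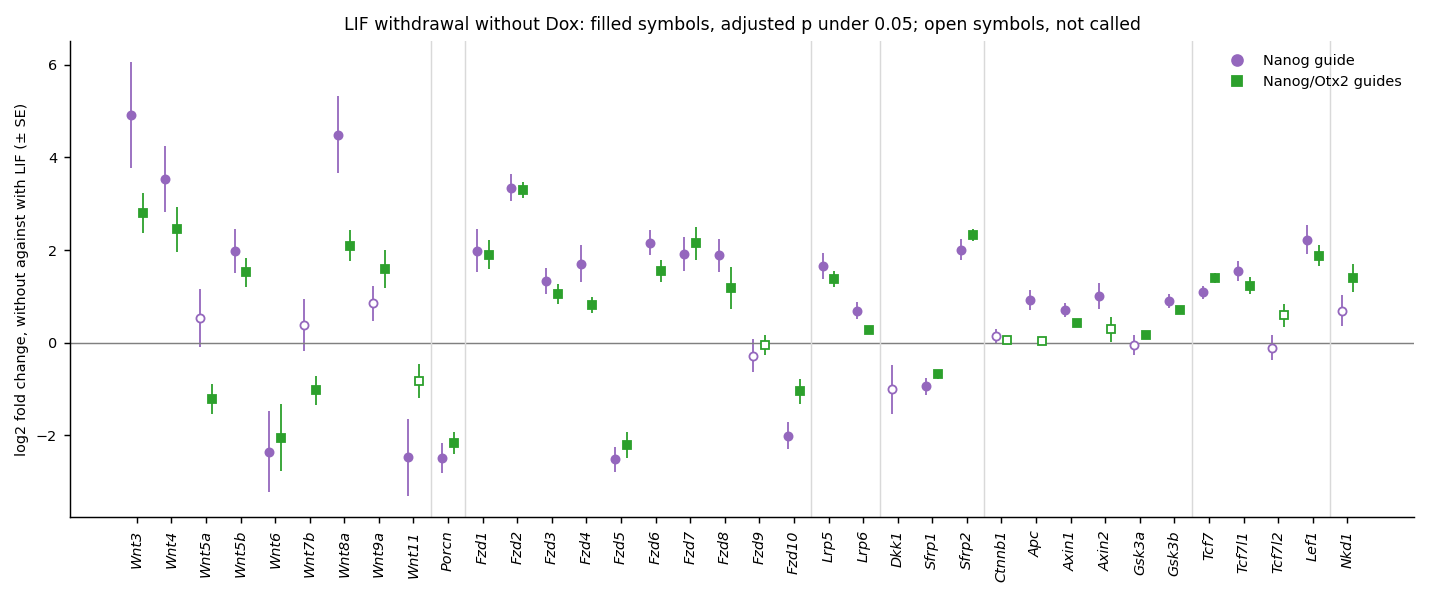
Log2 fold change (± SE) of each tested member without against with LIF, no Dox, in Nanog guide cells (purple circles) and Nanog/Otx2 guides cells (green squares); filled symbols were called and grey lines separate the roles from ligands to targets. Values above 0 are higher without LIF, and the 2 guide sets gave similar values for most receptors, with Fzd5 and Fzd10 below 0 and Fzd2 above 3 in both.

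Porcn, the acyltransferase, fell upon LIF withdrawal. With LIF and no Dox it had 637, 717 and 406 normalised counts under the Nanog guide, and without LIF 87.9, 133 and 95.9. The 2 groups did not overlap, and Porcn was 5.64-fold lower without LIF (log2 fold change -2.50 ± 0.32 SE, edgeR adjusted p = 0.000125). In the Nanog/Otx2 cells it went from 705, 684 and 435 to 161, 144, 121 and 139, again without overlap, and was 4.47-fold lower (log2 -2.16 ± 0.24, edgeR adjusted p = 3.2e-06).

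Among the ligands, Wnt3, Wnt4, Wnt5b and Wnt8a were called higher in both guide sets and Wnt6 lower in both, all from levels of at most 102 counts in any SunTag library with LIF and no Dox. Of these only Wnt5b entered the test through groups both with and without LIF in each guide set, and Wnt4 did so under the Nanog/Otx2 guides. The others could enter only by being high on 1 side, so their values are a description. Wnt3 had 0 to 4.99 counts with LIF and 43.9 to 86 without it under the Nanog guide. Wnt8a, a ligand of the primitive streak, had 0 to 5.03 with LIF and 36.9 to 46.4 without it. Calls of the Wnt6 decrease held in 3 of 11 omissions of a library under the Nanog guide (edgeR adjusted p up to 0.146), and with the clone and replicate number as a block it was lost (edgeR adjusted p = 0.0768). Wnt9a rose and Wnt5a and Wnt7b fell under the Nanog/Otx2 guides, and Wnt11, which entered through the LIF group alone, was called lower under the Nanog guide, with its call held in 6 of 11 omissions and lost with the block (edgeR adjusted p = 0.0649). The falls of Wnt5a and Wnt7b were lost without the Nanog/Otx2 C1-1 library with LIF and no Dox (edgeR adjusted p = 0.0792 and 0.155).

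Fzd5 fell and Fzd7 rose, and the more abundant Frizzled message per kb was Fzd5 with LIF and Fzd7 without it. Fzd5, with LIF and no Dox, had 3652, 4826 and 5357 counts under the Nanog guide and 680, 708 and 1056 without LIF. It was 5.73-fold lower without LIF (log2 -2.52 ± 0.27, edgeR adjusted p = 3.29e-05), and 4.61-fold lower under the Nanog/Otx2 guides (edgeR adjusted p = 1.37e-05), where 2874, 3585 and 6120 counts became 695, 855, 932 and 1220. In both the groups were fully separate. Fzd7 had 2453, 1827 and 1787 counts with LIF and 6018, 5724 and 11572 without it, a 3.79-fold rise (log2 1.92 ± 0.36, edgeR adjusted p = 0.00163). Nanog/Otx2 cells went from 1691, 2157 and 2366 counts of Fzd7 to 5928, 7016, 11139 and 13154 (4.41-fold, edgeR adjusted p = 0.000188), and every library without LIF lay above every library with it.

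Per kb, Fzd7 made up 27.2% to 41.3% of the summed Frizzled messages with LIF and no Dox and 68.1% to 80.2% without LIF under the Nanog guide, while Fzd5 went from 42.7% to 56.7% to 5.09% to 5.86%. The ratio of Fzd7 to Fzd5 per kb was 0.48 to 0.97 with LIF and 11.6 to 15.8 without it. With both guides this ratio was 0.556 to 0.866 with LIF and 11.8 to 17.2 without it. The summed Frizzled level was 1238 to 1367 counts per kb with LIF and 1750 to 3004 without it under the Nanog guide.

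**Figure D2:**
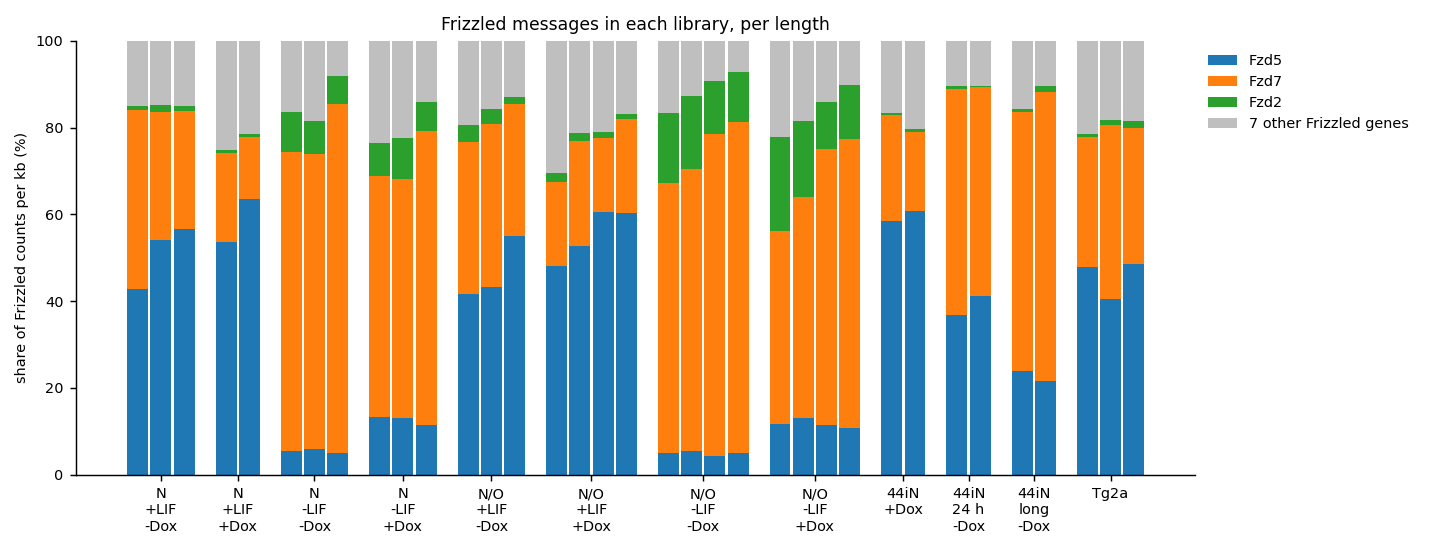
Share (%) of the summed Frizzled counts per kb taken by Fzd5 (blue), Fzd7 (orange), Fzd2 (green) and the other 7 Frizzled genes (grey) in each of the 35 libraries, 1 bar a library, by group. Fzd7 holds 62.1% to 80.2% of the bar in SunTag libraries without LIF and Dox, and Fzd5 holds 41.6% to 63.5% in SunTag libraries with LIF.

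Fzd2 had the largest fold rise of the receptors in both guide sets. Its counts were 45.5, 73.8 and 52.4 with LIF and 598, 483 and 703 without it under the Nanog guide (10.2-fold, log2 3.35 ± 0.29, edgeR adjusted p = 9.12e-06). In the Nanog/Otx2 cells they were 139, 150 and 92.6 with LIF and 1157, 1368, 1372 and 1512 without it (9.85-fold, edgeR adjusted p = 1.82e-09). Fzd3, Fzd4, Fzd6 and Fzd8 rose as well. Under the Nanog guide the group means went from 90.4 ± 26.3 to 228 ± 38.4 counts for Fzd3, from 42.6 ± 22.6 to 139 ± 10.8 for Fzd4, from 93 ± 11 to 418 ± 38.8 for Fzd6 and from 28.3 ± 5.63 to 104 ± 29.4 for Fzd8 (SD, n = 3 each). Fzd1, under 110 counts in every SunTag library, rose in both guide sets as well. The rise of Fzd8 under the Nanog/Otx2 guides, from 60.8 ± 33.5 (n = 3) to 153 ± 70.8 (n = 4), was called (edgeR adjusted p = 0.0431) but held in 8 of 15 omissions of a library.

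Fzd10 fell from 270, 300 and 431 counts to 90.4, 95.7 and 66.4 under the Nanog guide (4.02-fold, log2 -2.01 ± 0.29, edgeR adjusted p = 0.000308). It was the only member whose exons overlap another gene model on the same strand, a second Fzd10 row annotated as a pseudogene, which took 0 to 287 counts in the SunTag libraries. With both rows summed the log2 fold change was -1.97 (edgeR adjusted p = 7.08e-05) under the Nanog guide, and -1.46 (edgeR adjusted p = 0.000344) against -1.05 for the main row alone under the Nanog/Otx2 guides. Fzd9 was not called in either guide set, with log2 fold changes of -0.28 and -0.05.

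Both co-receptors rose. Lrp5 had 396, 964 and 948 counts with LIF and 2558, 2073 and 2733 without it (3.15-fold, log2 1.66 ± 0.27, edgeR adjusted p = 0.000639), and under the Nanog/Otx2 guides its means were 1038 ± 229 (n = 3) and 2723 ± 469 (n = 4). Lrp6 changed less, from 2082 ± 501 to 3402 ± 166 (1.61-fold, edgeR adjusted p = 0.0105) and from 1997 ± 205 to 2456 ± 195 (1.2-fold, edgeR adjusted p = 0.0173). The second of these calls was lost without the Nanog/Otx2 C1-1 library with LIF and no Dox (edgeR adjusted p = 0.101).

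The 2 Sfrp inhibitors moved in opposite directions. Sfrp1 had 1473, 1550 and 2074 counts with LIF and 880, 1039 and 763 without it (1.93-fold lower, log2 -0.95 ± 0.19, edgeR adjusted p = 0.00197), and its means under the Nanog/Otx2 guides were 1554 ± 256 and 986 ± 59.7. Sfrp2 had 187, 220 and 273 with LIF and 962, 907 and 913 without it (4.02-fold, log2 2.01 ± 0.23, edgeR adjusted p = 5.91e-05), and 230 ± 7.61 and 1174 ± 150 under the Nanog/Otx2 guides (5.01-fold, edgeR adjusted p = 5.73e-09). Neither gene's groups overlapped in either guide set. Dkk1, an inhibitor that binds the Lrp co-receptors, had at most 50.9 counts in any SunTag library.

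Ctnnb1, which encodes beta-catenin, was not called upon LIF withdrawal without Dox in either guide set, while 4 of the 5 destruction complex genes rose under the Nanog guide and 3 under the Nanog/Otx2 guides. Ctnnb1 was at 19389 to 25577 counts with LIF and 23720 to 24787 without it under the Nanog guide, with a log2 fold change of 0.14 ± 0.15, not called. Those that rose were Apc, Axin1, Axin2 and Gsk3b under the Nanog guide, and Axin1, Gsk3a and Gsk3b under the Nanog/Otx2 guides. Apc, the scaffold, went from 3497 ± 1150 to 6709 ± 952 counts (1.89-fold, edgeR adjusted p = 0.00622), but under the Nanog/Otx2 guides its means were 3799 ± 307 and 4018 ± 194. Axin1 rose from 1428 ± 207 to 2349 ± 138 and from 1676 ± 128 to 2295 ± 133 (edgeR adjusted p = 0.00383 and 0.00074). Gsk3b, the kinase, rose from 1467 ± 202 to 2784 ± 121 and from 1175 ± 11.2 to 1961 ± 122 (edgeR adjusted p = 0.000552 and 2.17e-05). Axin2, a scaffold that is also a general target of Wnt signalling, rose from 150, 171 and 132 to 397, 297 and 225 under the Nanog guide (2.01-fold, edgeR adjusted p = 0.0145), a call lost without the C2-2 library with LIF or the C1-1 library without LIF (edgeR adjusted p up to 0.0733). It had 184 ± 45.3 and 231 ± 68.5 under the Nanog/Otx2 guides, called only with the block (edgeR adjusted p = 0.0324, and 0.0506 with the clone alone as block). Gsk3a was called under the Nanog/Otx2 guides only, from 2746 ± 144 to 3127 ± 117, a difference of 0.16 ± 0.06 on the log2 scale that held in 6 of 15 omissions. Under the Nanog guide the C1-1 library with LIF had 1781 counts against 3778 and 3598 in the other two.

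Of the TCF/LEF factors, Lef1, Tcf7 and Tcf7l1 rose in both guide sets and Tcf7l2 was called only with the block, under the Nanog/Otx2 guides (log2 0.54, edgeR adjusted p = 0.00575). Lef1 had 739, 865 and 315 counts with LIF and 2774, 2735 and 3539 without it (4.67-fold, log2 2.22 ± 0.31, edgeR adjusted p = 0.000205), and under the Nanog/Otx2 guides 577, 622 and 389 against 1554, 1938, 2148 and 2540 (3.68-fold, edgeR adjusted p = 7.78e-06). Tcf7l1 had 777, 1700 and 1194 with LIF and 3441, 3662 and 3726 without it (2.92-fold, log2 1.54 ± 0.22, edgeR adjusted p = 0.000283), and means of 1096 ± 304 and 2686 ± 261 under the Nanog/Otx2 guides. Tcf7 rose from 1125 ± 88.9 to 2421 ± 52.7 and from 957 ± 71 to 2584 ± 121 (edgeR adjusted p = 0.000104 and 5.87e-08). The libraries with and without LIF did not overlap for any of these. Nkd1, a feedback inhibitor, rose under the Nanog/Otx2 guides from 39.2 ± 4.99 to 107 ± 42.7 (edgeR adjusted p = 0.00128) and had 46.3 ± 13 and 76 ± 10.1 under the Nanog guide, not called. Sp5, a direct target of beta-catenin and TCF/LEF factors, had at most 22.6 counts in any SunTag library.

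When Nanog was activated by Dox in both arms, 14 members rose and 4 fell upon LIF withdrawal under the Nanog guide, where 17.1% and 15.5% of all genes did, with a median log2 fold change of 0.43 against -0.04. Porcn was not among them, at 974 and 730 counts with LIF and 710, 768 and 371 without it. Lef1 gave the largest rise, from 98.8 and 125 to 2592, 3012 and 2372 counts (23.9-fold, log2 4.58 ± 0.41, edgeR adjusted p = 5.79e-05), and the largest among the receptors was that of Fzd2, from 14.9 and 20.6 to 176, 241 and 300 (13.2-fold, edgeR adjusted p = 9.23e-05). Fzd5 was 4.72-fold lower without LIF (edgeR adjusted p = 0.000318). The number of calls ranged from 11, without the C1-1 library with LIF and Dox, to 23, without the C1-1 library with LIF and no Dox.

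**Figure D3:**
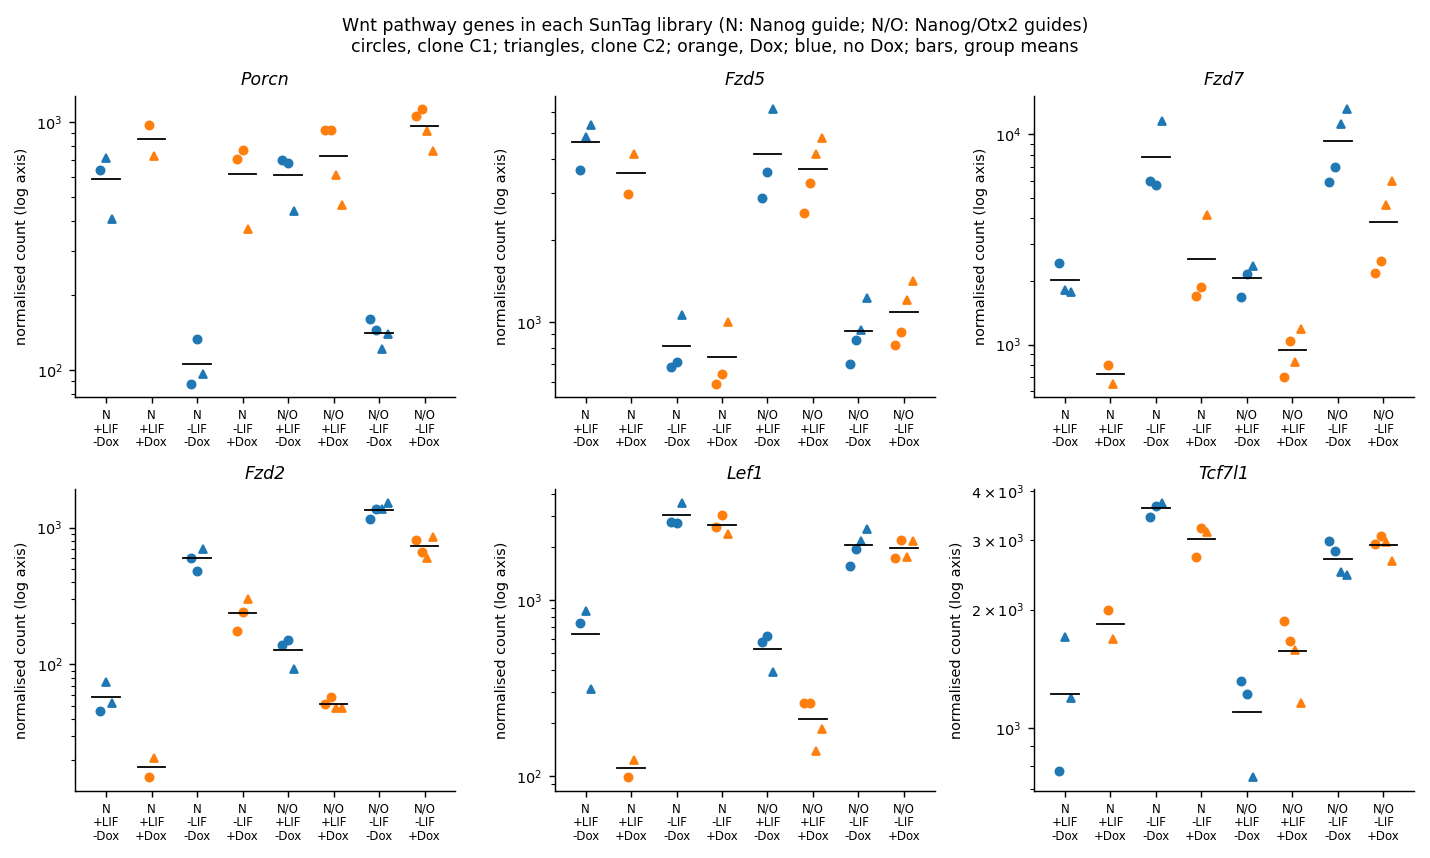
Normalised counts (log axis) of 6 members in each of the 26 SunTag libraries, by guide set (N, Nanog; N/O, Nanog/Otx2), LIF and Dox; circles are clone C1, triangles clone C2, orange is with Dox, blue without, and black bars are group means. Porcn is low only in the groups without both LIF and Dox (87.9 to 161 counts), Lef1 falls with Dox only in the presence of LIF, and Fzd5 is separated by LIF in every guide set and Dox arm.

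Dox without LIF asks which of these genes change with Dox when LIF is absent. Dox also switches on the dead Cas9 and VP64, and under the Nanog/Otx2 guides Otx2 as well. None of the SunTag libraries lacked a guide, so Nanog and these other changes cannot be told apart. Under the Nanog guide 5 of the 36 members were called, 1 higher (Porcn) and 4 lower (Fzd2, Fzd7, Fzd8 and Tcf7), where 3.6% of all genes tested were higher and 1.54% lower, and the median log2 fold change was -0.31 against 0.00182. In the Nanog/Otx2 cells 2 were higher (Porcn and Wnt5b) and 7 lower (Wnt8a, Fzd2, Fzd7, Fzd10, Sfrp1, Sfrp2 and Axin1) of 35, where 11.2% and 6.15% of all genes were, with a median of -0.03 against -0.01. Porcn, Fzd2 and Fzd7 were thus called in both. With the clone and replicate number as a block, 16 of the 35 members were called under the Nanog/Otx2 guides, where 33.4% of all genes were. The 7 added were Wnt4, Fzd5 and Axin2 (higher) and Fzd6, Fzd8, Lrp5 and Gsk3a (lower). One library without Dox but with LIF carries a different replicate number in the count table than in its title. With the table's numbers the same 16 were called (34.6% of all genes). With the clone alone as block 14 were called (30% of all genes), without Wnt4 and Fzd5 (edgeR adjusted p = 0.102 and 0.107). The number called under the Nanog guide fell to 1 without the C1-1 library without LIF and Dox, to 2 without the C2-1 library of that group or the C1-1 or C1-1b library with Dox. It rose to 8 without the C1-1 library with LIF and no Dox. Under the Nanog/Otx2 guides it was 5 without the C2-1 library without LIF and Dox. The share of all genes called is not given for these omissions. The marker sums moved with Dox as well: without LIF the naive markers summed to 98471 to 111402 with Dox against 34846 to 38816, and the formative markers to 49030 to 57334 against 104913 to 122237, under the Nanog guide. Such sums weigh the most abundant markers most. Nanog, which Dox switches on, had 2234 to 8484 counts without Dox and 45041 to 55641 with it in these libraries. With LIF the naive sum was also higher with Dox, at 180386 to 209158 against 129703 to 142913, while 0 of the 13 were called. The part of Nanog in the naive sums and calls was not tested. Gene by gene and without LIF, 10 of the 13 naive markers were called higher (median log2 2.49) and 3 were not called. Of the 6 formative markers 4 were called lower (median log2 -1.23) and 2 were not called. Their part in these values was not tested.

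Porcn rose with Dox when LIF was absent. Without LIF it had 87.9, 133 and 95.9 counts without Dox and 710, 768 and 371 with Dox under the Nanog guide (5.97-fold higher, log2 2.58 ± 0.32, edgeR adjusted p = 0.000938). Nanog/Otx2 cells had 161, 144, 121 and 139 without Dox and 1056, 1124, 917 and 764 with Dox (6.98-fold, log2 2.80 ± 0.23, edgeR adjusted p = 2.4e-06). The groups were separate in both, and the call held in each of the 11 and each of the 15 omissions of a library. With LIF present the Dox difference was not called in either guide set, at 587 ± 162 (n = 3) and 852 ± 172 (n = 2) counts and 608 ± 150 (n = 3) and 732 ± 235 (n = 4); under the Nanog/Otx2 guides it was called with the block by title number (edgeR adjusted p = 0.0486, against 0.464), but not by the count table's number or the clone alone (edgeR adjusted p = 0.0694 and 0.056).

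Fzd7, by contrast, fell with Dox. Without LIF it had 6018, 5724 and 11572 counts without Dox and 1699, 1876 and 4114 with Dox under the Nanog guide (2.97-fold lower, log2 -1.57 ± 0.36, edgeR adjusted p = 0.0273). Nanog/Otx2 cells had 5928, 7016, 11139 and 13154 without Dox and 2184, 2508, 4629 and 6032 with Dox (2.36-fold lower, log2 -1.24 ± 0.31, edgeR adjusted p = 0.0143), and the highest library with Dox, of clone C2, lay above the lowest without, of clone C1. Within each clone the libraries were separate, at 5928 and 7016 against 2184 and 2508 in C1 and 11139 and 13154 against 4629 and 6032 in C2. The call under the Nanog guide was lost without the C1-1 or C2-1 library without Dox or the C1-1 or C1-1b library with Dox (edgeR adjusted p up to 0.127). With LIF the counts were 2453, 1827 and 1787 without Dox and 796 and 653 with Dox under the Nanog guide, not called (log2 -1.50 ± 0.42, edgeR adjusted p = 0.138), and 1691, 2157 and 2366 against 705, 1039, 825 and 1190 under the Nanog/Otx2 guides (2.17-fold lower, edgeR adjusted p = 0.0289). This last call was lost without any 1 of 4 libraries, C1-2 and C2-1 without Dox and C1-1 and C2-1 with Dox (edgeR adjusted p up to 0.0924).

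Fzd2 fell alongside it, from 598, 483 and 703 counts to 176, 241 and 300 without LIF under the Nanog guide (2.45-fold, log2 -1.29 ± 0.26, edgeR adjusted p = 0.0143), a call lost without the same 4 libraries as for Fzd7 (edgeR adjusted p up to 0.0891). Its means in the Nanog/Otx2 cells were 1353 ± 146 and 730 ± 121 (1.8-fold lower, edgeR adjusted p = 0.000595, n = 4 each). Its libraries with Dox lay below those without Dox in both guide sets. With LIF, Fzd2 was lower with Dox under the Nanog/Otx2 guides, at 139, 150 and 92.6 against 51.2, 57.3, 47.7 and 47.8 (2.62-fold, edgeR adjusted p = 0.000121), and under the Nanog guide the difference (log2 -1.66 ± 0.37, edgeR adjusted p = 0.0751) was called only with the clone block (edgeR adjusted p = 0.0265). Fzd8 fell from 128, 114 and 71.3 to 29.7, 31.7 and 19.9 without LIF under the Nanog guide (3.75-fold, edgeR adjusted p = 0.00742), a call lost without the C1-1 library without Dox (edgeR adjusted p = 0.0529), and had 153 ± 70.8 and 68 ± 38.3 under the Nanog/Otx2 guides (edgeR adjusted p = 0.0685). The abundance of Fzd5 without LIF stayed low with Dox, at 591, 639 and 1000 counts under the Nanog guide (log2 -0.10 ± 0.25 against no Dox, edgeR adjusted p = 0.898). Its Nanog/Otx2 libraries had 824, 920, 1208 and 1412 with Dox, a difference of 0.28 ± 0.26 that was called only with the block (edgeR adjusted p = 0.507, 0.0346 with the block and 0.107 with the clone alone as block).

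The ratio of Fzd7 to Fzd5 per kb without LIF was therefore 4.14 to 5.92 with Dox, against 11.6 to 15.8 without it under the Nanog guide, and 3.82 to 6.15 against 11.8 to 17.2 under the Nanog/Otx2 guides. The summed Frizzled level without LIF was 639 to 1264 counts per kb with Dox and 1750 to 3004 without it under the Nanog guide, and 1023 to 1889 against 1987 to 3588 under the Nanog/Otx2 guides. These ranges did not overlap.

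Tcf7 fell with Dox without LIF under the Nanog guide, from 2482, 2390 and 2391 to 1632, 1703 and 1639 counts (1.43-fold, log2 -0.52 ± 0.13, edgeR adjusted p = 0.0463), and this call held in 3 of 11 omissions of a library. The corresponding Nanog/Otx2 counts were 2665, 2515, 2706 and 2450 and 3020, 2418, 2554 and 2340, which overlapped. Sfrp2 was lower with Dox under the Nanog/Otx2 guides, at 1174 ± 150 against 822 ± 82 (1.39-fold, edgeR adjusted p = 0.00899), and had 927 ± 29.7 and 522 ± 139 under the Nanog guide (edgeR adjusted p = 0.0593, and 0.0293 with the block). Sfrp1 was lower under the Nanog/Otx2 guides both without LIF (986 ± 59.7 against 736 ± 49.7, edgeR adjusted p = 0.0115) and with it (1554 ± 256 against 1149 ± 50.8, edgeR adjusted p = 0.00953). Its counts under the Nanog guide were 894 ± 138 and 995 ± 69.8 without LIF. Axin1 under the Nanog/Otx2 guides fell from 2295 ± 133 to 1877 ± 111 (edgeR adjusted p = 0.0321), a call held in 9 of 15 omissions. The fall of Fzd10 there (109 ± 30.6 to 61.4 ± 19.9 counts, edgeR adjusted p = 0.0463) was lost when its 2 annotated rows were summed (edgeR adjusted p = 0.126). Wnt5b rose from 44.8 ± 13.3 to 85.4 ± 25.4 and Wnt8a fell from 33.5 ± 9.02 to 16 ± 1.37 under the Nanog/Otx2 guides, and each call held in 12 of 15 omissions (edgeR adjusted p up to 0.0727 and 0.064).

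**Figure D4:**
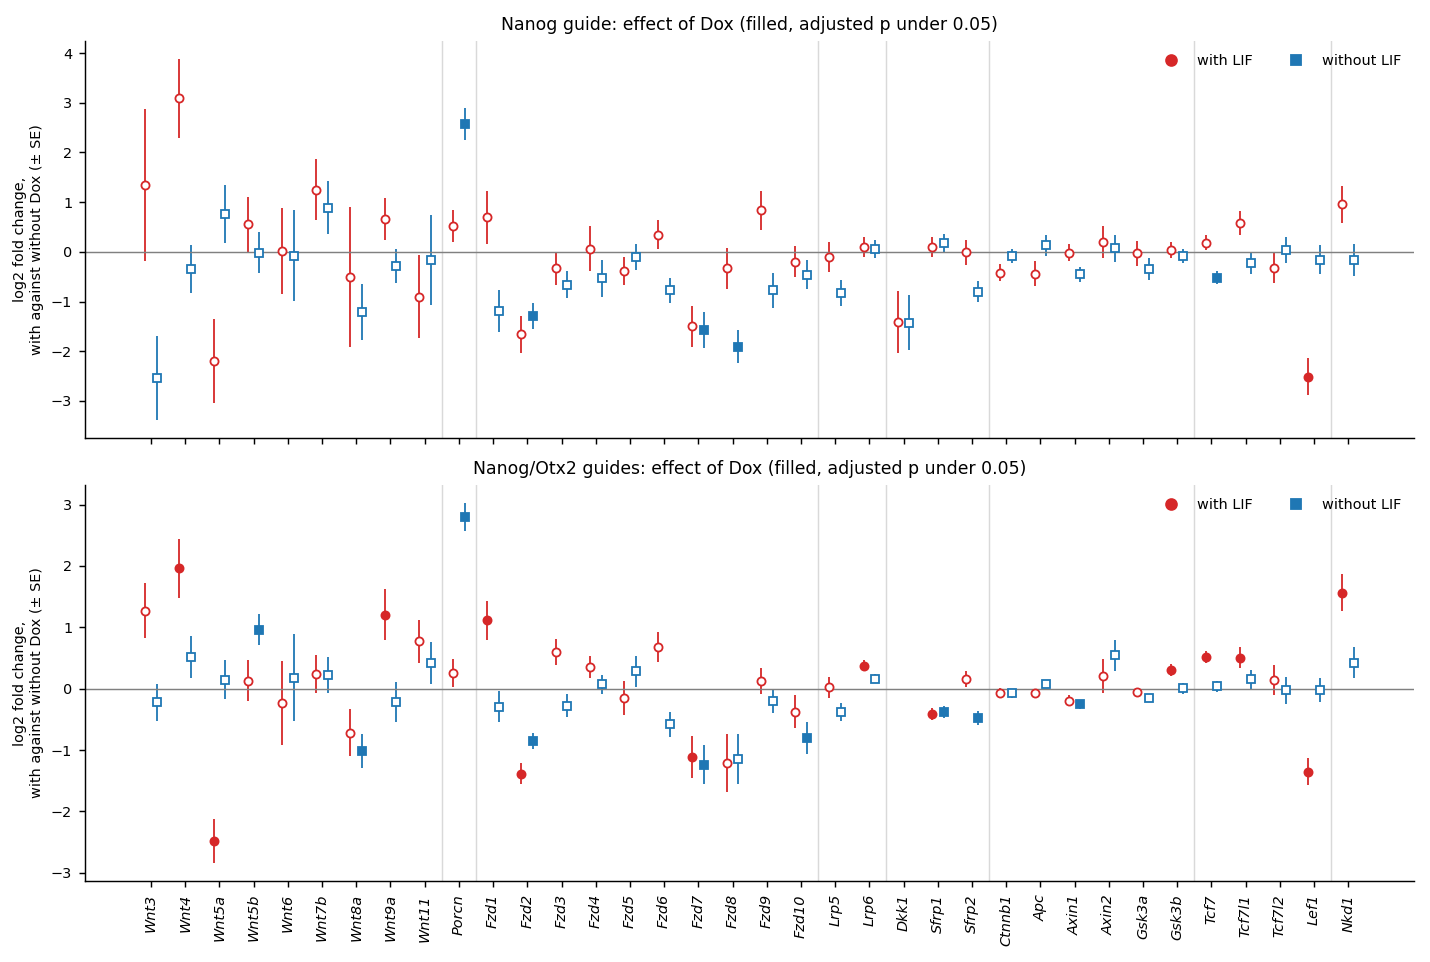
Log2 fold change (± SE) of each tested member with against without Dox, in cells with LIF (red circles) and without LIF (blue squares), for the Nanog guide (top) and the Nanog/Otx2 guides (bottom); filled symbols were called. Porcn stands above 2.5 only without LIF, Lef1 lies below -1.3 only with LIF, and Fzd2 and Fzd7 lie below 0 in all 4 comparisons.

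Under the Nanog guide with LIF, Nanog itself was 3.35-fold higher with Dox but not called (edgeR adjusted p = 0.0793, 2 libraries with Dox). Members not called in this test may therefore still respond. In the same test 1 member was called, where 0.422% of all genes tested were higher and 0.141% lower. It was Lef1, with 739, 865 and 315 counts without Dox and 98.8 and 125 with Dox (5.69-fold lower, log2 -2.51 ± 0.38, edgeR adjusted p = 0.0198). The groups did not overlap, and the call was lost without either Dox library or the C2-1 library without Dox (edgeR adjusted p up to 0.148). No member rose by edgeR or DESeq2, and at an unadjusted edgeR p under 0.05 there were 3 higher and 6 lower members, where 14.3% of all genes passed. With the clone as a block 2 members were called, Lef1 and Fzd2, where 1.88% of all genes were.

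With both guides and LIF, 13 of 35 members were called: 8 higher, where 12.9% of all genes were, and 5 lower, where 10% were. Lef1 was lower here too, from 577, 622 and 389 to 262, 261, 139 and 187 counts (2.55-fold, log2 -1.35 ± 0.22, edgeR adjusted p = 0.000789), again without overlap. Wnt5a, a mainly non-canonical ligand, fell from 68.4, 49.9 and 13.9 to 9.4, 7.54, 10.3 and 7.12 (5.6-fold, log2 -2.49 ± 0.36, edgeR adjusted p = 0.000363); its counts under the Nanog guide were 77.7, 8.38 and 27.5 without Dox and 7.46 and 8.07 with Dox, not called. The other lower members were Sfrp1, Fzd7 and Fzd2, given above. The higher ones were Tcf7 (957 ± 71 to 1361 ± 139, edgeR adjusted p = 0.00237), Nkd1 (39.2 ± 4.99 to 115 ± 19.4, edgeR adjusted p = 0.00235), Lrp6 (1997 ± 205 to 2556 ± 37.4, edgeR adjusted p = 0.00661), Gsk3b, Tcf7l1, Wnt4, Wnt9a and Fzd1. The call of Wnt4 was lost without the C1-2 library without Dox (edgeR adjusted p = 0.0658), that of Fzd1 without C1-1 or C1-2 (up to 0.133), and those of Gsk3b, Wnt9a and Tcf7l1 held in 9, 6 and 3 of 15 omissions. Without the C1-2 library with LIF and no Dox 7 members were called, and the share of all genes is not given there. With the block Porcn, Fzd3 and Fzd6 (higher) and Fzd5, Fzd8 and Axin1 (lower) were called in addition (edgeR adjusted p between 0.000834 and 0.0486), where 41% of all genes were called. Porcn and Fzd5 were not called with the clone alone as block (edgeR adjusted p = 0.056 and 0.145).

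The dependence of the Dox response on LIF was tested as the interaction. Under the Nanog guide it was called for Lef1 and Porcn, 2 of 36 members, where 1.93% of all genes were called. The difference (without LIF minus with LIF) was 2.06 ± 0.46 on the log2 scale for Porcn (edgeR adjusted p = 0.0456) and 2.36 ± 0.47 for Lef1 (edgeR adjusted p = 0.0283), and these calls held in 2 and 4 of 11 omissions. Under the Nanog/Otx2 guides, where this test was added after the values were seen, 7 of 35 members were called and 9.7% of all genes. Porcn (2.55 ± 0.32, edgeR adjusted p = 0.000213), Lef1 (1.33 ± 0.29, edgeR adjusted p = 0.0103) and Wnt5a (2.63 ± 0.49, edgeR adjusted p = 0.00347) had positive differences, and each held in all 15 omissions. Fzd1, Fzd6, Sfrp2 and Tcf7 had negative ones. With the block 14 were called, and 21.8% of all genes. With the count table's numbers or the clone alone as block these were 12 and 21.3% or 11 and 18.5%. The count was 3 without the C1-2 library with LIF and no Dox and 4 without the C1-1 or the C1-2 library without LIF and Dox. For these omissions the share of all genes is not given. Lef1 thus fell with Dox only where LIF was present, and without LIF its counts were 2774, 2735 and 3539 without Dox and 2592, 3012 and 2372 with Dox under the Nanog guide (log2 -0.15 ± 0.29, edgeR adjusted p = 0.858).

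Whether adding the Otx2 guide altered the members was asked in cells with Dox and without LIF. Directly compared, 9 members were higher and 5 lower in the Nanog/Otx2 cells, where 20.1% and 20.9% of all 16210 genes tested were. The 2 guide sets carry different forms of library code, which may reflect separate series of libraries. They are also different clonal lines, so guide, series and line cannot be told apart. The higher ones were Fzd2 (730 ± 121 against 239 ± 62.1 counts, 2.93-fold, edgeR adjusted p = 3.78e-06), Fzd8, Fzd9, Sfrp2, Tcf7, Nkd1, Wnt4, Wnt9a and Wnt11, and the lower ones Apc (4131 ± 344 against 7184 ± 566, 1.82-fold, edgeR adjusted p = 7.74e-05), Gsk3b, Lrp6, Sfrp1 and Wnt5a. The calls of Wnt9a, Wnt11, Fzd8 and Sfrp2 were lost without at least 1 library (edgeR adjusted p up to 0.112, 0.0972, 0.132 and 0.052); for Sfrp2 this was the Nanog guide C1-1b library with Dox. With the block Porcn, Fzd5, Lrp5 and Wnt5b (higher) and Tcf7l2 (lower) were called in addition, where 49.2% of all genes were called. When each guide set was first set against its own cells without Dox, 0 members were called by edgeR or DESeq2 (0.0308% and 0.253% of all genes), and 3 had an unadjusted edgeR p under 0.05, Wnt3, Sfrp1 and Tcf7 (5.69% of all genes). The Tcf7 difference was 0.51 ± 0.14 on the log2 scale (edgeR adjusted p = 0.484). Otx2 itself was called in this test (log2 difference 1.57 ± 0.25, edgeR adjusted p = 0.00914). Its rise with Dox under the Nanog/Otx2 guides was 1.81-fold without LIF (edgeR adjusted p = 0.000566), against 3.67-fold with LIF. The 0 calls among members therefore refer to the smaller of these rises.

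Some members were ordered by clone. Of the 36 tested, Fzd5 and Tcf7l2 were higher in every C2 library than in every C1 library of all 8 SunTag groups, where 3.84% of all genes were. None was lower in all 8, where 2.76% of all genes were. In at least 7 of the 8 groups 4 were higher in C2 (these 2, Ctnnb1 and Wnt6) and 3 lower (Axin1, Fzd1 and Fzd8), where 8.01% and 7.91% of all genes were, shares close to those of the members. Fzd7 without LIF and Dox had 6018 and 5724 counts in C1 and 11572 in C2 under the Nanog guide, and 5928 and 7016 against 11139 and 13154 under the Nanog/Otx2 guides. In the same libraries Nanog had 7032 and 8484 counts in C1 and 2234 in C2, and 6867 and 6327 against 1974 and 2533. With 1 line per clone these are descriptions of the lines and carry no test.

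In 44iN cells the question was how these genes differ with Dox, which drives the Nanog transgene, and 24 h without it, with LIF present. By edgeR no member was called of 31 tested, and neither was any gene (0%). Nanog itself, 23.6-fold higher with Dox, was not called either (edgeR adjusted p = 0.0902), so members not called may still respond. At an unadjusted edgeR p under 0.05 there were 5 members, Fzd7, Tcf7l1, Sfrp1, Wnt5a and Fzd8, where 7.12% of all genes passed. Fzd7 had 1477 and 950 counts with Dox and 4905 and 4247 after 24 h without it (3.54-fold lower with Dox, log2 -1.82 ± 0.27, edgeR adjusted p = 0.225). The libraries were separate, and the difference was called by DESeq2 (adjusted p = 1.95e-05), which called 2 members and 0.981% of genes, and by edgeR when all 9 44iN and Tg2a libraries shared 1 model (edgeR adjusted p = 0.0351), which called 1 member and 0.803% of genes. Tcf7l1, the repressor, had 558 and 681 counts with Dox and 202 and 192 without it (3.37-fold higher with Dox, log2 1.75 ± 0.31, edgeR adjusted p = 0.256, and 0.00403 by DESeq2). Sfrp1 had 1821 and 1908 with Dox and 977 and 1210 without it (edgeR adjusted p = 0.455), while Fzd5 had 5106 and 4578 against 4972 and 5226, and Porcn 248 and 297 against 235 and 201. Lef1 was low in both, at 116 and 74.6 counts with Dox and 108 and 50.3 without it. Per kb the ratio of Fzd7 to Fzd5 was 0.299 and 0.417 with Dox and 1.17 and 1.42 without it.

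In 44iN cells kept without Dox for the long term, 5 of 35 members differed from Tg2a cells, 1 higher and 4 lower, where 3.35% and 5.26% of all genes were. The cell lines differ in more than Nanog, and the long-term cells were also under G418 selection. The count was 1 without either 44iN library, 2 without Tg2a replicate 2 and 9 without Tg2a replicate 1 or 3. Sfrp1 was the largest, at 315 and 230 counts against 1480, 1407 and 1471 (5.61-fold lower, log2 -2.49 ± 0.19, edgeR adjusted p = 0.00134), and the only call kept in all 5 omissions of a library. Fzd7 was higher, at 3736 and 5150 against 1732, 2585 and 1811 (2.06-fold, log2 1.04 ± 0.22, edgeR adjusted p = 0.0302), a call lost without either 44iN library (edgeR adjusted p up to 0.253). Fzd5, at 2155 and 2399 against 3993, 3769 and 4047 (1.82-fold lower, edgeR adjusted p = 0.0123), and Tcf7l2, at 73.8 and 114 against 205, 237 and 313 (edgeR adjusted p = 0.0285), were lower; both calls were lost without either 44iN library or the Tg2a replicate 2 (edgeR adjusted p up to 0.192 and 0.287). Wnt5a was lower, at 37.9 and 42.9 against 95.6, 107 and 77.2 (edgeR adjusted p = 0.0436, held in 1 of 5 omissions). None of these 5, picked by their calls, overlapped between the groups. Neither the share of all genes so separated nor the share called in each omission is given. Dkk1, under 53 counts in every other 44iN and every SunTag library, had 463 and 275 counts here and 232, 227 and 194 in Tg2a cells. The summed primitive endoderm markers were 18110 to 24842 and 14021 to 18750 in these 2 groups, against 4597 to 5176 in the other 44iN libraries, and their part in these values was not tested.

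**Figure D5:**
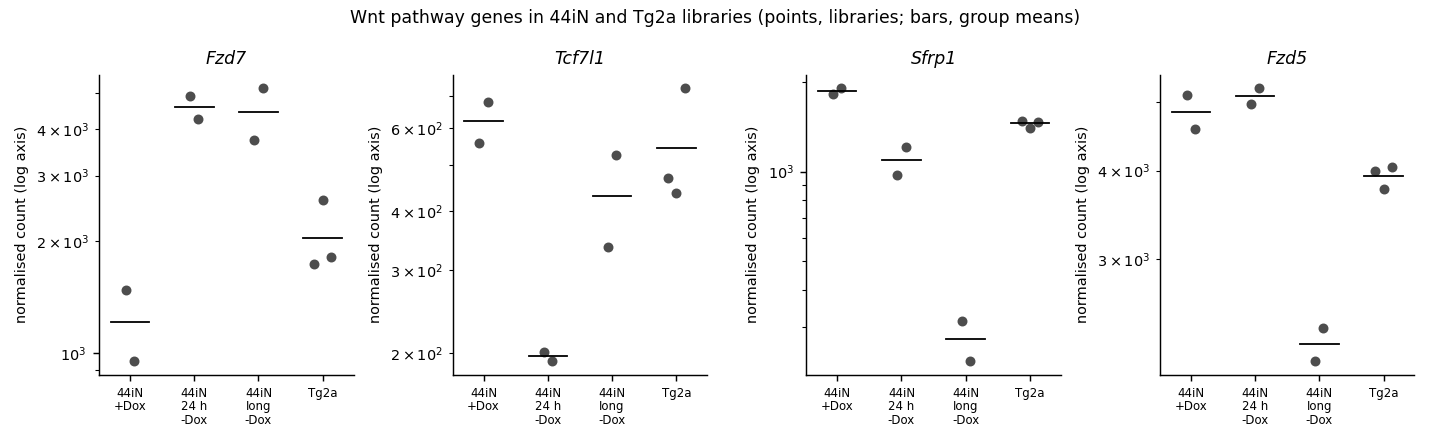
Normalised counts (log axis) of Fzd7, Tcf7l1, Sfrp1 and Fzd5 in 44iN cells with Dox, after 24 h and long-term without Dox, and in Tg2a cells; points are libraries and bars group means. Fzd7 is lowest with Dox (950 and 1477 counts), and Sfrp1 is lowest in the long-term group (230 and 315).

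Of 67 further Wnt pathway genes in the tables (other ligands, agonists, inhibitors, relay proteins, cofactors, polarity genes and targets), 50 were tested under the Nanog guide. LIF withdrawal without Dox raised 23 and lowered 7 of them, where 20.2% and 21.3% of all genes rose and fell. Dox without LIF raised 2, Notum and Vangl1, and lowered 3, Nkd2, Ptk7 and Prickle1, where 3.6% and 1.54% of all genes were called. The count of higher genes was near the share over all genes. Notum, an enzyme that removes the lipid from Wnt proteins, had 319 ± 74.1 counts with LIF, 22.9 ± 3.87 without it and 180 ± 64.8 without LIF and with Dox (8.03-fold for Dox, edgeR adjusted p = 0.000374; SD, n = 3 each). Vangl1, a planar polarity protein, had 1781 ± 467, 333 ± 24.2 and 954 ± 196 (edgeR adjusted p = 0.00178 for Dox). Prickle1, which also acts in planar polarity, had 48.2 ± 11.1, 362 ± 31.9 and 66.9 ± 50 (5.34-fold lower with Dox, edgeR adjusted p = 0.00899). Nkd2, a feedback inhibitor, had 80.5 ± 20.2, 283 ± 38 and 125 ± 18.7, and Ptk7, a co-receptor of non-canonical signalling, 1129 ± 423, 4054 ± 842 and 1730 ± 322 (edgeR adjusted p = 0.0165 and 0.0232 for Dox). The comparisons for LIF and for Dox share the libraries without LIF and Dox.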

How the data were processed

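RNA-seq of 35 libraries of mouse ES cells was analysed; the Tg2a libraries in 2i medium and the ChIP and accessibility data were not analysed here. Per the labels and methods, the authors prepared stranded polyA libraries, sequenced single-end reads, aligned them with STAR to mm9 and estimated gene abundance with RSEM (the submitters' processing notes also name CASAVA 1.8). The authors deposited RSEM expected counts rounded to whole numbers. They also deposited a signal per gene and library, the same counts divided by DESeq2 size factors over all 35 columns; these are the normalised counts printed. Fractional assignment by RSEM can shift counts between overlapping gene models, as at Fzd10.

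The expected counts were tested here with edgeR 4.0.16 (R 4.3.3): TMM scaling, quasi-likelihood test, Benjamini-Hochberg adjustment over all genes tested, calls at adjusted p under 0.05, 1 model per guide set (4 groups), 1 for all SunTag groups, 1 for the 44iN Dox comparison and 1 for long-term 44iN and Tg2a cells. Genes entered where 1 or more groups of the model had no library under 10 normalised counts. SE is the log2 fold change divided by the square root of F. Group values are mean ± SD. Depth ranged from 6107512 to 92244655 counts per library, which limits the scarce ligands. The scripts were tested on simulated data with known changes. Alternatives were DESeq2 1.42.0, its size factors in edgeR, no filter, leaving out each library, a clone and replicate block, a model of all 9 44iN and Tg2a libraries and, chosen after seeing the data, summing the rows of a symbol and 2 other blocks.

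C1 and C2 are the same lines in every condition of a guide set. Deviations from group means correlated between same-clone libraries with a median r of 0.142 (-0.0581 to 0.409, 22 pairs) under the Nanog guide and 0.227 (-0.0787 to 0.55, 42 pairs) under the Nanog/Otx2 guides, against -0.144 and -0.233 between clones, and the 21 Nanog/Otx2 pairs sharing clone and title number gave 0.131 to 0.55. Because deviations balance out within a group, negative values between clones accompany positive same-clone values and are no separate support for a pairing. The block was the clone for the Nanog guide and the clone with the title's number for the Nanog/Otx2 guides. The count table's names carry another number than the title in 4 SunTag libraries, 1 of them Nanog/Otx2 (C2-1 with LIF and no Dox); by the table's numbers the pairs gave 0.118 to 0.55, and blocks on those numbers and on the clone alone were also fitted.

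The members and gene lists were chosen with earlier results of these data known. Values are given for members called in LIF withdrawal without Dox or Dox without LIF that reach a mean of 100 normalised counts in a SunTag group, and for further pathway genes called in Dox without LIF under the Nanog guide; other members are named after their values were seen. The interaction under the Nanog/Otx2 guides was also added then. Of the fibroblast, naive, formative, primitive streak, primitive endoderm and neural marker lists, the fibroblast list summed to 16.1 to 381 counts in a library.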

Additional observations from a re-analysis of the deposited data

Results flagged for a closer look

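One value lay far from the others of its group: Wnt5a in the Nanog/Otx2 C1-1 library without LIF and Dox had 14.4 normalised counts, against 23.8 to 25.6 in the other 3. Groups of 4 libraries were examined for 113 gene and group pairs, and by chance about 5% of such groups are picked out.

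For the members below, the Dox effect differed with LIF, by the test of the difference itself (effect without LIF minus effect with LIF, log2 scale). Under the Nanog guide this was 2.06 for Porcn (SE 0.46, edgeR adjusted p = 0.0456) and 2.36 for Lef1 (SE 0.47, edgeR adjusted p = 0.0283). Under the Nanog/Otx2 guides the differences were 2.63 for Wnt5a (SE 0.49, edgeR adjusted p = 0.00347), 2.55 for Porcn (SE 0.32, edgeR adjusted p = 0.000213) and 1.33 for Lef1 (SE 0.29, edgeR adjusted p = 0.0103), and -1.40 for Fzd1 (SE 0.40, edgeR adjusted p = 0.0381), -1.27 for Fzd6 (SE 0.32, edgeR adjusted p = 0.0208), -0.63 for Sfrp2 (SE 0.17, edgeR adjusted p = 0.0305) and -0.48 for Tcf7 (SE 0.13, edgeR adjusted p = 0.0341). Wnt5a, at 7.12 to 10.3 counts with LIF and Dox, is the scarcest of these.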

How the results depend on the processing

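Of 250 counts of members called under the alternatives, 203 stayed within 1.5 times the reported count. For 132 single results (each called member, with Fzd7 and Tcf7l1 for Dox in 44iN cells) 2628 values were computed, of which none changed sign, 229 lost their call and 12, all of the latter pair, gained one; members not called in the reported test are outside these numbers. The cause was not tested where a count moved. The share of all genes called is given in brackets. By DESeq2, 8 members were called for Dox without LIF (9.66%) and 3 for Dox with LIF (3.76%) under the Nanog guide, 2 for Dox in 44iN cells (0.981%) and 9 for long-term 44iN against Tg2a cells (15.4%). Without a filter the last 2 comparisons called 2 (1.97%) and 10 (7.05%), and with all 9 libraries in 1 model 1 (0.803%) and 3 (5.24%). With DESeq2 size factors the interaction under the Nanog guide called 1 (1.9%). With the replicate block 2 members were called for Dox with LIF (1.88%, Nanog guide), and 16 for Dox without LIF (33.4%) and 14 for the interaction (21.8%) under the Nanog/Otx2 guides; the block by the count table's numbers gave 16 (34.6%) and 12 (21.3%) there, and the block by clone alone 14 (30%) and 11 (18.5%). No block moved another SunTag count by over 1.5 times. The 44iN libraries share only a number (r = 0.492 for the same number), and there the block called 6 (13.3%).

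Leaving out 1 library at a time gave 24 to 30 members for LIF withdrawal without Dox, 11 to 23 with Dox, 1 to 8 for Dox without LIF, 0 to 1 for Dox with LIF and 0 to 2 for the interaction (Nanog guide). The ranges were 25 to 30, 5 to 11, 7 to 15 and 3 to 8 for LIF withdrawal, Dox without LIF, Dox with LIF and the interaction (Nanog/Otx2 guides), 12 to 17 and 0 to 0 between guides, 0 to 6 in 44iN cells (6 without replicate 1 and 2 without replicate 2 of the Dox group) and 1 to 9 for the long-term cells. Where this left 1 library in a group, its spread was taken to equal that of the other groups. The share of all genes called is not given for any omission, here or above. Whether the calls over all genes moved alike is therefore not known. Ligands under 20 counts and the groups of 2 libraries limit precision.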
